A study of Mus musculus with 24 samples.

Results

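The interaction of Prmt1 knockdown with embryoid body formation is the difference between a pair of courses. One course is the change of a gene from undifferentiated embryonic stem (ES) cells to day 4 embryoid bodies in the knockdown cells, and the other is the same change in control cells. A gene is reversed where both courses were called with opposite signs. It is blunted where the control course was called and the knockdown course was smaller in size, and exaggerated where the knockdown course was called and larger in size. In both classes the other course was either called with the same sign or not called. The comparison takes 12 of the series' 24 arrays, chosen by sample title, with 3 arrays in each of 4 groups. All 4 groups are D3 cells, an established line of mouse ES cells. The siSCR groups carry a scrambled control sequence and the siPRMT1 groups carry a knockdown of Prmt1, and each was taken undifferentiated and as day 4 embryoid bodies. Cells were first passaged on gelatin to keep feeder cells out, and embryoid bodies were formed by aggregation in bacteriological dishes without the cytokine LIF. The labels do not say how the knockdown was made, or if a line was 1 clone or a pool. The labels call the 3 arrays of a group biological replicates, but nothing says that they came from separate cultures, so p-values measure only the spread between these samples.

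PRMT1 is the main enzyme that places asymmetric dimethylarginine on mammalian proteins, among them histone H4, RNA-binding proteins and signalling proteins. In an embryoid body, cells leave the naive pluripotent state, pass through a state like the early post-implantation epiblast, and form an outer layer of primitive and visceral endoderm before the other germ layers appear. A larger aggregate also has a supply of oxygen and nutrients that differs between its rim and its core. An interaction can arise from a difference between the lines in ES cells, at day 4, or at both stages, so each gene is given below with all 4 group means.

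Values are the deposited log2 expression values, and a course or an interaction is a difference of such values with its standard error from limma over 3 arrays per group. A gene was called where its adjusted p was under 0.05. The medians of the 12 arrays over 19938 genes lay between 8.08 and 8.18. Arrays of a group correlated at 0.996 to 0.999 over genes, arrays of different groups at 0.978 to 0.995, and 0 pairs were identical. With 3 arrays per group the precision is limited, and the median standard error over genes was 0.0767 for a course and 0.109 for the interaction. In bulk RNA, fewer cells of a type and less RNA per cell cannot be told apart. The ES cell markers Pou5f1 and Nanog were high in all 4 groups, at group means of 13.12 to 13.29 and 12.9 to 13.28. Neither was called in the interaction (adjusted p = 0.112 and 0.0843). Other ES cell markers did differ: of the 21 measured naive pluripotency genes described below, 11 had a lower and 1 a higher interaction.

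Prmt1 itself was lower in siPRMT1 at both stages, and the gap narrowed. In siSCR the ES arrays read 11.07, 10.95 and 11.1, and the day 4 arrays 11.02, 10.85 and 10.92. In siPRMT1 the ES arrays read 9.79, 9.62 and 9.6, and the day 4 arrays 10.35, 10.29 and 10.26. The lines did not overlap at either stage. The knockdown was 2.59-fold in ES cells and 1.55-fold at day 4: Prmt1 rose by 0.63 ± 0.0677 in siPRMT1 (adjusted p = 1.11e-05), against a change of -0.11 ± 0.0677 in siSCR (adjusted p = 0.255). The interaction of Prmt1 was therefore 0.74 ± 0.0958 (adjusted p = 0.000151), and the lines compared below differ less in Prmt1 at day 4 than in ES cells.

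In the interaction 5544 of 19938 genes were called, or 27.8%. Leaving out the dimmest 25% of genes gave 5783 calls, so the called share was higher among the brighter genes that remained. For lists of bright genes 27.8% is therefore a low mark. Of these, 3391 had a higher course in siPRMT1 (17.0% of all genes) and 2153 a lower one (10.8%), so 61.2% of the calls were on the higher side. That split depends on array scaling: it was 51.5% after quantile normalization, 52.2% with arrays scaled to one SD and 47.3% after median centring, which moved the median interaction of all genes by -0.056. The interaction was at least 2-fold in 343 genes, 236 higher and 107 lower, or 1.72% of all genes. The course was called in 6224 genes (31.2%) in siSCR and in 9147 genes (45.9%) in siPRMT1, and was at least 2-fold in 550 (2.76%) and 652 (3.27%).

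Of the 5544 genes 702 were reversed (12.7%), 3123 exaggerated (56.3%) and 1541 blunted (27.8%), while 178 could not be placed by their courses. Over all genes these classes held 3.52%, 15.7% and 7.73%. Among exaggerated genes 2407 had no called course in siSCR, and among blunted genes 1034 had no called course in siPRMT1. The classes rest on courses from the same arrays as the interaction, so their sizes are a description. Most reversed genes moved little in each line: the median course was 0.30 in siSCR and -0.30 in siPRMT1 for the 321 that rose in siSCR, and -0.27 and 0.31 for the 381 that fell. Both courses reached 1.5-fold in 13 reversed genes and 2-fold in 0.

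The stage at which the lines differed was mixed. The knockdown effect was called in ES cells alone for 1834 of the 5544 genes (33.1%), at day 4 alone for 1673 (30.2%), and at both stages with opposite signs for 1232 (22.2%). Among the 343 genes with an interaction of at least 2-fold, 224 (65.3%) were of the last kind. A knockdown effect was called in 22.4% of all genes in ES cells and in 21.5% at day 4, and was at least 2-fold in 0.386% and 0.456%. By direction, 9.27% of all genes were higher and 13.1% lower in knockdown ES cells, and 13.0% and 8.54% in knockdown bodies. The 3 arrays of each line were apart, with no overlap, in 35.4% of all genes in ES cells and in 40.6% at day 4. They were apart at both stages in opposite order in 2546 genes, or 12.8%.

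**Figure D1:**
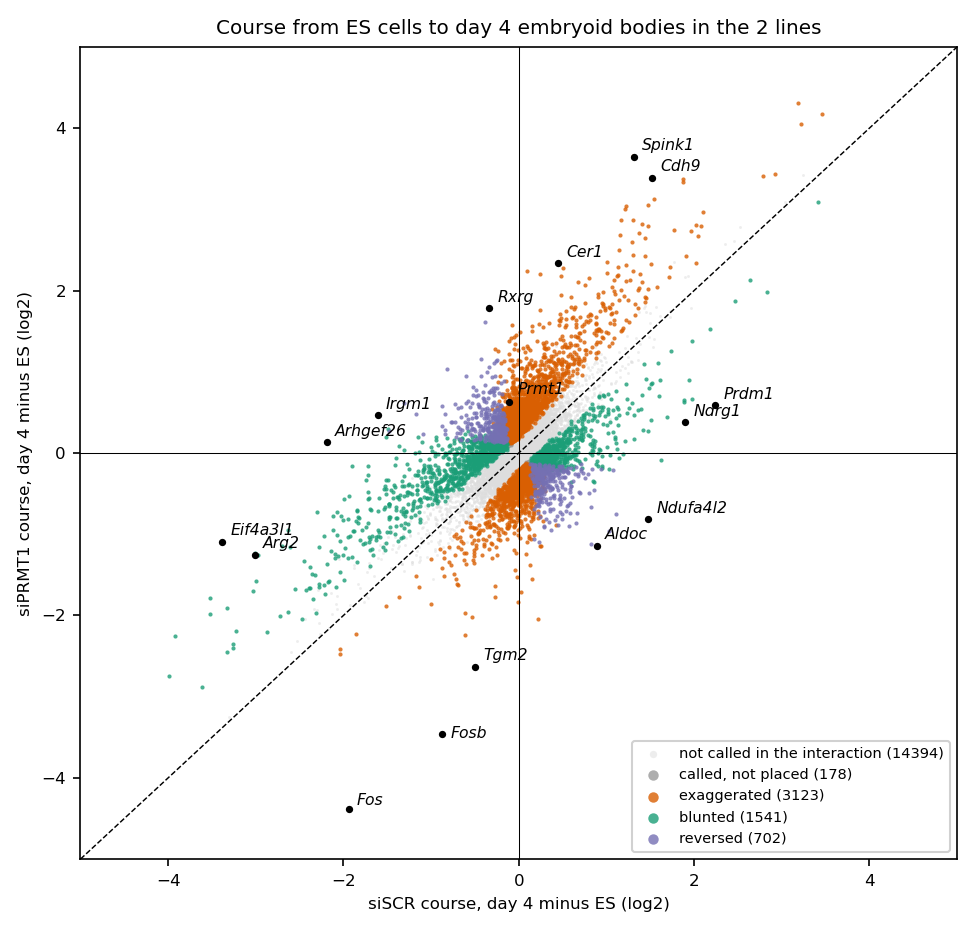
Each of 19938 genes is a point, with its day 4 minus ES difference in siSCR on the x axis and in siPRMT1 on the y axis, both in log2 units from 3 arrays per group, coloured by class; the dashed line marks equal courses and named genes are black. Reversed genes (702) lie at the upper left and lower right of the origin, where 0 reach 2-fold in both lines, while Fos and Fosb lie far below the dashed line and Spink1 and Cdh9 far above it.

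The reversed genes that rose in siSCR with the largest interactions were Ndufa4l2 and Aldoc, both on the list of hypoxia and glycolysis genes. Ndufa4l2, a mitochondrial protein made in low oxygen, read 8.72, 8.5 and 8.66 in siSCR ES cells and 9.95, 10.13 and 10.23 at day 4. In siPRMT1 the same gene started high, at 9.59, 9.61 and 9.6, and ended low, at 8.78, 8.68 and 8.92. It rose 2.78-fold in control cells and fell 1.75-fold in knockdown cells, an interaction of -2.29 ± 0.119 (adjusted p = 3.68e-07), and the lines did not overlap at either stage.

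Aldoc, the brain-type aldolase of glycolysis, crossed in the same way. Its arrays read 10.44, 10.39 and 10.36 in siSCR ES cells and 11.31, 11.29 and 11.25 in siSCR day 4 bodies, against 11.54, 11.47 and 11.5 and then 10.37, 10.41 and 10.3 in siPRMT1. Day 4 knockdown bodies thus sat at the level of control ES cells (means 10.36 and 10.39), and knockdown ES cells stood above control day 4 bodies (11.5 and 11.28). The interaction was -2.03 ± 0.0706 (adjusted p = 4.9e-08).

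A2m, the protease inhibitor alpha-2-macroglobulin, had group means of 8.98 and 10.01 in siSCR ES cells and day 4 bodies and 9.9 and 8.94 in siPRMT1 (interaction -1.99 ± 0.13). Cntd1, a cyclin-like factor of meiotic crossing-over, had means of 7.79, 8.62, 9.13 and 8.01 in the same order (-1.95 ± 0.0956), and its 3 siSCR day 4 arrays read 8.61, 8.62 and 8.62. Crtac1, a secreted cartilage protein, had means of 8.35, 9.47, 9.02 and 8.27 (-1.86 ± 0.0748). In all 3 genes the lines were apart at both stages, with siPRMT1 above siSCR in ES cells and below it at day 4.

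The 5 named genes that were reversed and fell in siSCR were Rxrg, Irgm1, Il33, Ly96 and Plat. Irgm1, an interferon-inducible GTPase, read 9.68, 9.52 and 9.61 in siSCR ES cells and 7.91, 7.93 and 8.15 at day 4, a 3.05-fold fall. In siPRMT1 it read 8.6, 8.43 and 8.4 and then 8.95, 8.87 and 9.01, a 1.38-fold rise, so the order of the lines turned over (interaction 2.07 ± 0.112, adjusted p = 4.48e-07). Il33, an alarmin cytokine, had means of 7.45 and 7.06 in siSCR and 6.83 and 8.44 in siPRMT1 (2.00 ± 0.0814). Ly96, which binds lipopolysaccharide with TLR4, had means of 8.61, 7.3, 7.33 and 7.94, with wider scatter (SD 0.328, 0.287, 0.285 and 0.151) and an interaction of 1.92 ± 0.264 (adjusted p = 0.00023).

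Rxrg, a retinoid X receptor, was low in 3 groups and high in the fourth. Its arrays read 7.19, 7.05 and 7.1 in siSCR ES cells, 6.85, 6.75 and 6.69 in siSCR bodies, 6.73, 6.72 and 6.79 in siPRMT1 ES cells, and 8.49, 8.63 and 8.47 in siPRMT1 bodies. The siSCR fall was 1.27-fold and the siPRMT1 rise 3.43-fold, an interaction of 2.12 ± 0.0891 (adjusted p = 7.74e-08). Plat, the tissue plasminogen activator, had means of 9.23 and 8.42 in siSCR and 8.7 and 9.73 in siPRMT1 (1.85 ± 0.105).

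**Figure D2:**
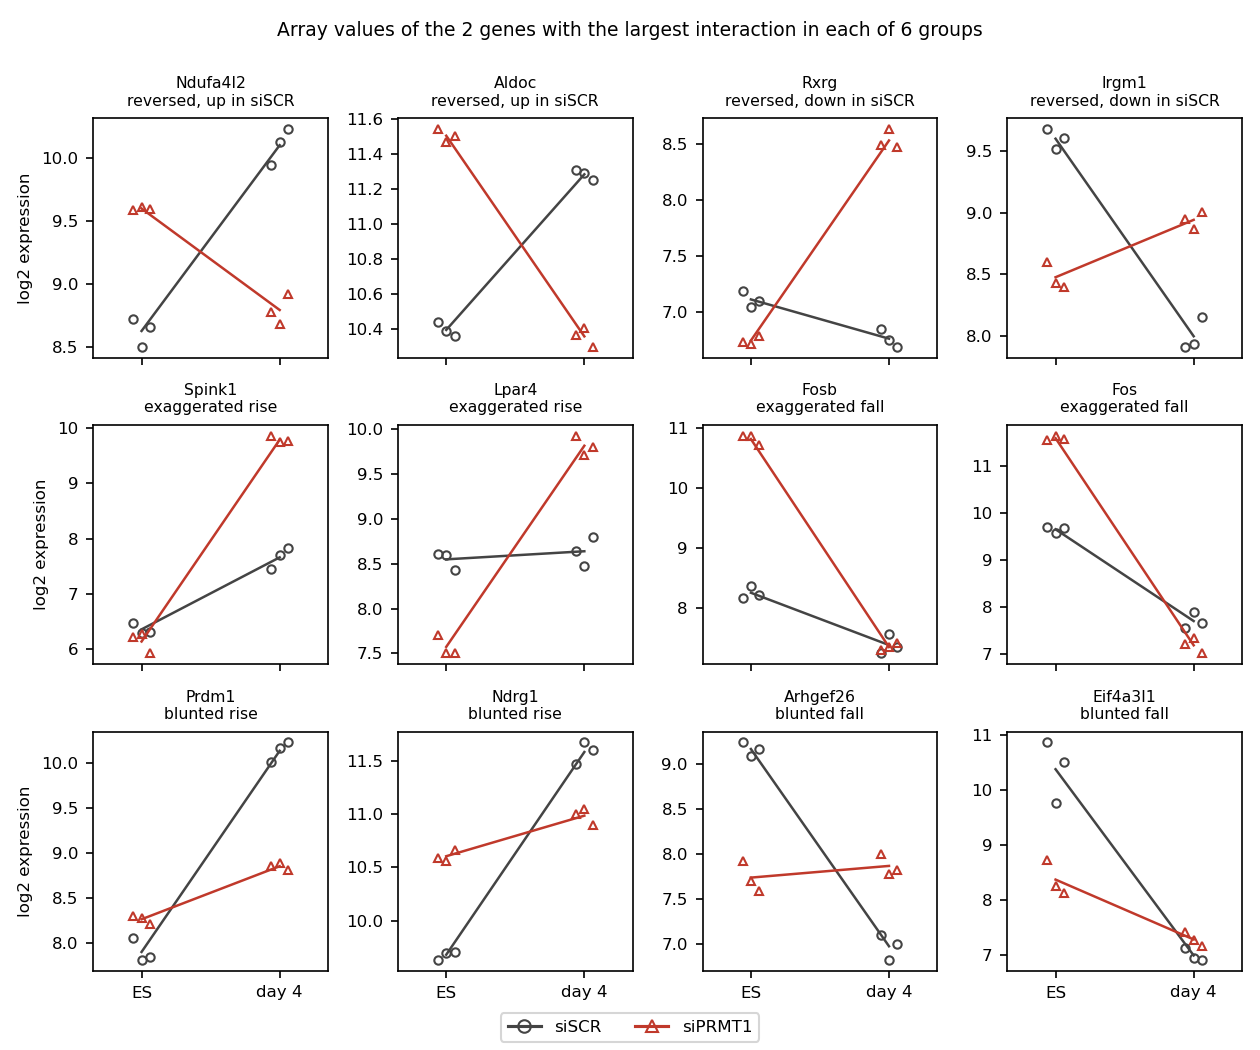
Log2 expression on each of the 12 arrays for 12 genes, the 2 with the largest interaction of each kind of course, with 3 points per group (circles siSCR, triangles siPRMT1, spread sideways only to be seen) and a line joining the group means. The lines cross for Ndufa4l2, Aldoc, Rxrg and Irgm1, and for Fosb they meet at day 4, at means of 7.39 and 7.35.

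Exaggerated rises were the largest class, with 2004 genes, and the 5 with the largest interactions included the endoderm gene Spink1 and the epiblast and endoderm antagonist Cer1. Spink1, a secreted trypsin inhibitor, read 6.48, 6.29 and 6.3 in siSCR ES cells and 6.22, 6.27 and 5.92 in siPRMT1 ES cells. At day 4 it read 7.45, 7.7 and 7.83 in siSCR and 9.86, 9.75 and 9.76 in siPRMT1. It rose 2.47-fold in control and 12.6-fold in knockdown cells (interaction 2.35 ± 0.152, adjusted p = 1.3e-06), and the knockdown effect was called at day 4 and not in ES cells.

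Cer1, a secreted antagonist of Nodal, BMP and Wnt, had means of 6.37 and 6.82 in siSCR (adjusted p = 0.0552 for the course) and 6.36 and 8.7 in siPRMT1, a 5.07-fold rise. Cdh9, a classical cadherin, had means of 5.81, 7.34, 5.8 and 9.19. For both, knockdown ES cells overlapped control ES cells and knockdown bodies were apart from control bodies. Lpar4, a lysophosphatidic acid receptor, and Sema6a, a transmembrane semaphorin, differed at both ends. Lpar4 had means of 8.54, 8.64, 7.57 and 9.81 and Sema6a of 7.73, 7.97, 7.26 and 9.47, lower in knockdown ES cells and higher in knockdown bodies. Their interactions were 2.14 ± 0.131 and 1.97 ± 0.104, and those of Cer1 and Cdh9 1.89 ± 0.231 and 1.87 ± 0.209.

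Exaggerated falls (1119 genes) were led by the AP-1 subunits Fosb and Fos. Fosb read 8.18, 8.37 and 8.23 in siSCR ES cells and 10.86, 10.87 and 10.72 in siPRMT1 ES cells. At day 4 the lines overlapped, at 7.25, 7.57 and 7.35 against 7.3, 7.35 and 7.42. The fall was 1.82-fold in control and 11.0-fold in knockdown cells (interaction -2.60 ± 0.118, adjusted p = 1.57e-07), and the lines differed in ES cells and not detectably at day 4 (adjusted p = 0.787).

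Fos had means of 9.65 and 7.71 in siSCR and 11.58 and 7.2 in siPRMT1, falls of 3.85-fold and 20.8-fold. Tgm2, the retinoid-responsive tissue transglutaminase, read 10.18, 10.21 and 10.18 in siSCR bodies and 8.74, 8.72 and 8.59 in siPRMT1 bodies, from ES means of 10.69 and 11.31. Got1l1, of the aspartate aminotransferase family, and Dhrs7, a short-chain dehydrogenase, had no called course in siSCR (means 8.63 and 8.63 for Got1l1, 9.45 and 9.6 for Dhrs7). In siPRMT1 they fell 3.57-fold and 2.94-fold, from 9.33 to 7.49 and from 10.22 to 8.66. In each of these 4 genes siPRMT1 was higher than siSCR in ES cells and lower at day 4.

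Blunted rises (624 genes) included a transcription factor of germ cell specification. Prdm1, the repressor Blimp1, read 8.05, 7.81 and 7.84 in siSCR ES cells and 10.01, 10.17 and 10.23 in siSCR bodies, a 4.71-fold rise. In siPRMT1 it went from 8.3, 8.28 and 8.21 to 8.86, 8.89 and 8.81, a 1.51-fold rise (interaction -1.65 ± 0.105, adjusted p = 1.2e-06). Ndrg1, a stress-responsive gene induced by hypoxia, had means of 9.68 and 11.58 in siSCR and 10.61 and 10.99 in siPRMT1 (-1.52 ± 0.0891). Gdpd3, a lysophospholipase D, had means of 6.42, 8.4, 6.79 and 7.46, and Ephx2, soluble epoxide hydrolase, of 7.15, 8.84, 7.4 and 7.85. Gna14, a G protein alpha subunit, ended near control, with means of 8.62 and 8.39 at day 4 (adjusted p = 0.0937), but began higher, at 7.76 against 6.74.

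Blunted falls (917 genes) began mostly from a lower level in knockdown ES cells: in 541 of them the knockdown effect was called in ES cells alone. Arhgef26 fell from 9.24, 9.09 and 9.17 to 7.1, 6.82 and 7.0 in siSCR, and in siPRMT1 read 7.92, 7.7 and 7.59 and then 8.0, 7.78 and 7.82. Its siPRMT1 course of 0.13 ± 0.0955 was not called (adjusted p = 0.288), against -2.19 ± 0.0955 in siSCR. Uprt, of the uracil phosphoribosyltransferase family, had means of 9.66, 8.16, 8.45 and 8.75. Ppbp, a platelet chemokine, reached the same floor in both lines, 5.48 and 5.45, from ES means of 8.48 in siSCR and 6.68 in siPRMT1. Eif4a3l1 and Arg2, both on the list of 2-cell-like genes described below, had means of 10.37, 6.99, 8.37 and 7.28, and of 9.83, 6.82, 8.5 and 7.25.

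Hypoxia-inducible and glycolysis genes formed the list with most reversed members. The factor HIF raises such genes when oxygen is scarce by binding a short sequence core in their control regions. Of 31 measured genes 24 had a lower course in siPRMT1 and 1 a higher one, against 10.8% and 17.0% of all genes, and the list median was -0.42 against -0.019 over all genes. In siSCR 26 rose and 0 fell, where 16.0% of all genes rose and 15.3% fell. In siPRMT1 6 rose and 10 fell, nearer the 24.4% and 21.4% of all genes that did so. By class 10 were reversed, 14 blunted and 1 exaggerated.

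The lines differed at both stages: 18 members were higher in knockdown ES cells and 20 lower in knockdown bodies. Those shares were 9.27% and 8.54% over all genes. The list mean per array ran from 10.98 to 11.01 in siSCR ES cells, 11.53 to 11.57 in siSCR bodies, 11.26 to 11.3 in siPRMT1 ES cells and 11.18 to 11.24 in siPRMT1 bodies, with no overlap between any of the 4 groups. Bhlhe40, a circadian and hypoxia-induced repressor, read 10.12, 10.22 and 10.28 in siSCR bodies and 8.95, 8.96 and 8.99 in siPRMT1 bodies, from ES means of 9.55 and 9.83 (interaction -1.51 ± 0.0738). Egln3, a prolyl hydroxylase that marks HIF for breakdown, rose 3.7-fold in siSCR and 1.57-fold in siPRMT1, with means of 10.39, 12.28, 10.89 and 11.54 (-1.24 ± 0.0727). Bnip3, a mitophagy receptor, had means of 10.64, 12.06, 11.4 and 11.69 (-1.14 ± 0.0805). P4ha2, a collagen prolyl hydroxylase, was the member with a higher course in siPRMT1, with means of 9.77, 10.01, 9.51 and 10.45.

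The promoters of the list were searched for ACGTG, the core of the HIF response element, on both strands. RefSeq promoters on GRCm38.p6, from 250 bases before to 50 after a gene's start, were matched by symbol for 27 of the 31 genes. Of these, 22 (81.5%) held the letters, against 3809 (24.4%) of 15614 genes with a promoter of the same length. A list of known hypoxia-inducible genes is likely to hold these letters however its members moved: they were in 17 of 21 members called in the interaction and in 5 of 6 not called. Where a gene has several promoters, the one with most copies counted. The 3 called members with the largest interaction and a match in this window are shown, 5′ to 3′ on the gene's strand, with the matching letters in capitals.
Aldoc: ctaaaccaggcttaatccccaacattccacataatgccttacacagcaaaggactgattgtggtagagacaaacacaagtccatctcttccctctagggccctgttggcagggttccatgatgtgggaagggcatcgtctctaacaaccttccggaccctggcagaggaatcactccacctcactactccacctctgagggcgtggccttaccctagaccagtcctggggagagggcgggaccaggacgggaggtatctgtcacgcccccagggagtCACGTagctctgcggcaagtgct
Egln3: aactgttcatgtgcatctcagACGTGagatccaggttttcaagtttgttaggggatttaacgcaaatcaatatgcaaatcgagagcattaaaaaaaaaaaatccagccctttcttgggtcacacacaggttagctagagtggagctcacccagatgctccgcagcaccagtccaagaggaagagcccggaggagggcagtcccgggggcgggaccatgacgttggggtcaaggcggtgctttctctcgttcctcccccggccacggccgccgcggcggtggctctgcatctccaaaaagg
Bnip3: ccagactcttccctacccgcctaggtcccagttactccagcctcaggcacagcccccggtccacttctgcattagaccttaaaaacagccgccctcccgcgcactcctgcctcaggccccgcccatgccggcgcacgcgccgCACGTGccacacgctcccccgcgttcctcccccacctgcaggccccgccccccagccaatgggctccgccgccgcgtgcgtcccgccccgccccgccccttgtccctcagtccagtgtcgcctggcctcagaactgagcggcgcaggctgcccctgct
The Aldoc promoter lies at chr11:78322823-78323122 on the plus strand, is 1 of 2 for the gene, and holds the reverse strand's letters from 27 bases after the start. The Egln3 promoter lies at chr12:54203825-54204124 on the minus strand and holds the letters 229 bases before the start. The Bnip3 promoter lies at chr7:138909457-138909756 on the minus strand, and its match, 108 bases before the start, reads the same on both strands. A match describes these letters and is not a measured binding site.

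Genes of the ATF4 and amino acid response moved in part with them. ATF4 is a transcription factor made when amino acids run short, and its targets supply amino acids and their transporters. Of 25 measured genes 21 rose in siSCR and 0 fell, where 16.0% of all genes rose and 15.3% fell. In siPRMT1 13 rose and 2 fell, against 24.4% and 21.4% of all genes. The interaction was lower in 9 and higher in 0, with a median of -0.18, and 8 of the 9 were blunted. That called share was 36.0%, against 27.8% of all genes, a share that is higher among brighter genes. With arrays scaled to one SD the lower count was 14. Nupr1, a stress-induced chromatin protein, rose 1.79-fold in siSCR, from 9.68, 9.84 and 9.87 to 10.62, 10.64 and 10.66. In siPRMT1 it read 10.07, 9.87 and 9.95 and then 10.02, 9.98 and 9.97, so the lines overlapped in ES cells and were apart at day 4 (interaction -0.82 ± 0.0911, adjusted p = 5.45e-05). Chac1, which degrades glutathione, had means of 10.11, 11.22, 10.69 and 11.12, with a knockdown effect called in ES cells and not at day 4. The cystine transporter Slc7a11 rose 3.82-fold in siSCR and 4.52-fold in siPRMT1, an interaction of 0.24 ± 0.198 that was not called (adjusted p = 0.401).

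The letters TGATGCAA, the ATF4 amino acid response element, were in 5 of the 22 promoters of this list (22.7%) and in 0.82% of all. The promoter of Nupr1, the called member with the largest interaction, holds them on the reverse strand 110 bases before the start (chr7:126625421-126625720, minus strand).
Nupr1: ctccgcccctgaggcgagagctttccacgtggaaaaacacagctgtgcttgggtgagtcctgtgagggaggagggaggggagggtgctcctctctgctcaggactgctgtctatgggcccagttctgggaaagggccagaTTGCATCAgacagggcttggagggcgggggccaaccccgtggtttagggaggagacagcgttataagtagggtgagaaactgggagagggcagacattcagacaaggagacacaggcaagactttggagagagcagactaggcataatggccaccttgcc
Genes of sterol and fatty acid synthesis rose in control bodies more often than in knockdown bodies. Of 26 measured 15 rose and 3 fell in siSCR, against 16.0% and 15.3% of all genes. In siPRMT1 5 rose and 8 fell, against 24.4% and 21.4%. The interaction was lower in 13 and higher in 1 (median -0.24), against 10.8% and 17.0%. Here 16 were higher in knockdown ES cells, against 9.27% of all genes. At day 4 2 were higher and 4 lower, against 13.0% and 8.54%. Srebf2, the transcription factor of cholesterol synthesis, had means of 11.11, 11.58, 11.48 and 11.31 and was reversed (-0.64 ± 0.0785). Tm7sf2, a sterol reductase, had means of 9.49, 10.41, 10.27 and 10.32 and was blunted (-0.86 ± 0.0817).

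Immediate early genes, which mitogens and stress switch on within minutes, fell more in the knockdown. Of 22 measured genes 16 fell and 3 rose in siSCR, against 15.3% and 16.0% of all genes. In siPRMT1 21 fell and 1 rose, against 21.4% and 24.4%. The interaction was lower in 14 and higher in 3 (median -0.47), against 10.8% and 17.0%. By class 11 were exaggerated, 4 reversed and 2 blunted. The difference lay mostly in ES cells, where 15 were higher in siPRMT1 and 3 lower, against 4 higher and 6 lower at day 4. Those shares of all genes were 9.27% and 13.1% in ES cells and 13.0% and 8.54% at day 4. Dusp1, a phosphatase of MAP kinases, read 11.84, 12.01 and 11.96 in siSCR ES cells and 12.71, 12.77 and 12.77 in siPRMT1 ES cells, and had day 4 means of 11.66 and 10.97 (interaction -1.50 ± 0.0911). Atf3 was reversed, with means of 8.97 and 9.16 in siSCR and 10.22 and 9.57 in siPRMT1. Myc was reversed the other way, with means of 11.84, 11.65, 11.44 and 12.03 (0.79 ± 0.0861). The AP-1 letters TGACTCA were in 0 of 16 promoters of the list and in 5.41% of all, which says only that these letters are not in this window.

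**Figure D3:**
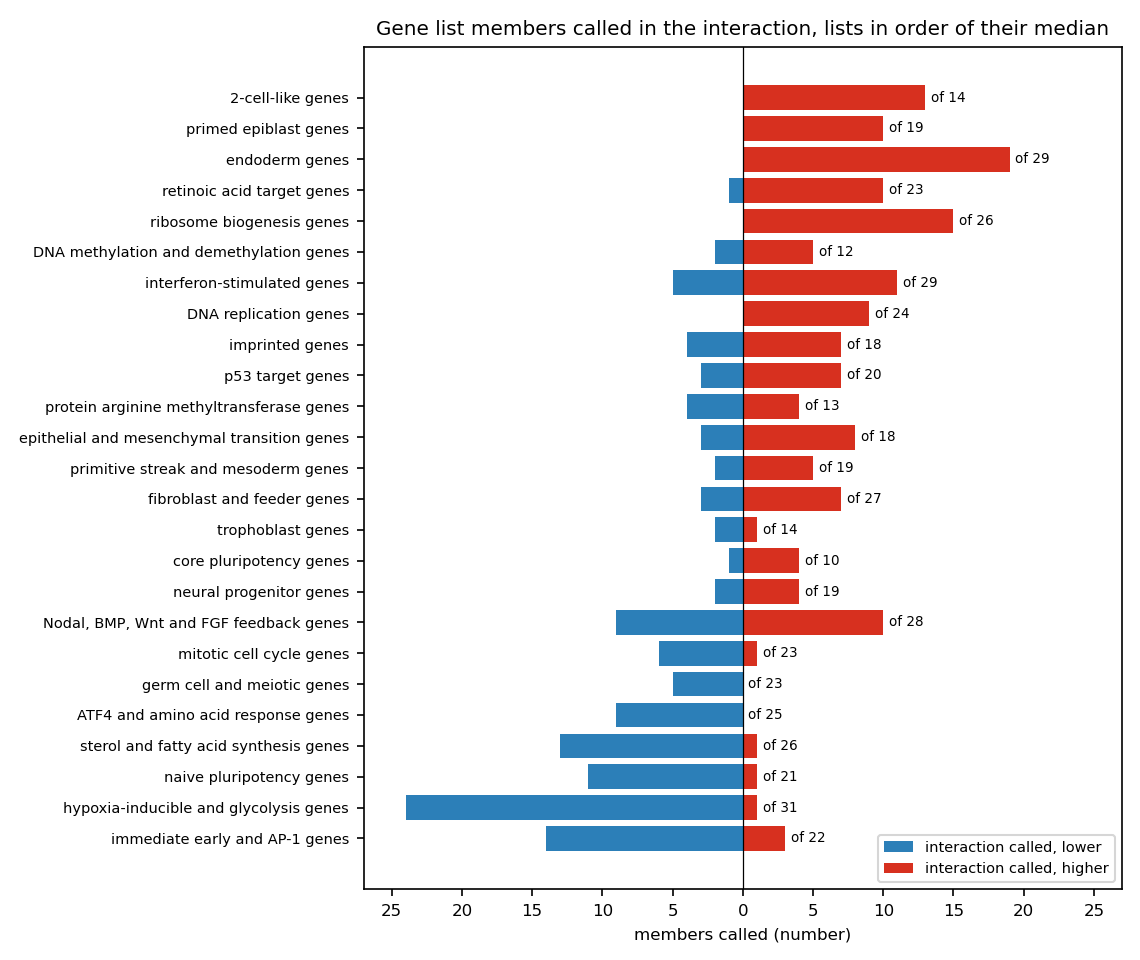
Bars give the number of measured members of each gene list called higher (right) or lower (left) in the interaction, with the number measured beside the bar and lists ordered by their median interaction. The 2-cell-like, primed epiblast and endoderm lists stand at the top, with 13, 10 and 19 members higher and 0 lower, and the hypoxia and immediate early lists at the bottom, with 24 and 14 lower.

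Naive pluripotency genes were lower in knockdown bodies. They include the LIF-dependent factors that hold ES cells in the ground state. Of 21 measured genes 11 had a lower and 1 a higher interaction (median -0.31), against 10.8% and 17.0% of all genes. In siSCR 7 rose and 5 fell, against 16.0% and 15.3%, whereas in siPRMT1 3 rose and 12 fell, against 24.4% and 21.4%. The lines differed at both stages: in ES cells 9 were higher in siPRMT1 and 3 lower, and at day 4 0 were higher and 13 lower. Those shares of all genes were 9.27% and 13.1% in ES cells and 13.0% and 8.54% at day 4. Klf2 read 10.31, 10.38 and 10.56 and then 10.72, 10.68 and 10.8 in siSCR, against 11.15, 11.17 and 11.08 and then 10.41, 10.33 and 10.22 in siPRMT1 (interaction -1.13 ± 0.102, adjusted p = 1.19e-05). Klf4 fell 1.44-fold in siSCR and 2.5-fold in siPRMT1, with means of 11.32, 10.8, 11.88 and 10.56. Tcl1, a coactivator of AKT, was reversed, with means of 11.38, 11.96, 11.91 and 11.17 (-1.32 ± 0.0796). Prdm14 was reversed through day 4, with means of 9.41 and 9.65 in siSCR and 9.43 and 9.05 in siPRMT1. The core pluripotency list had 4 of 10 higher and 1 lower, with a median of -0.02.

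Primed epiblast genes, which mark the step after the naive state, rose more in the knockdown. Of 19 measured genes 10 had a higher and 0 a lower interaction (median 0.51), against 17.0% and 10.8% of all genes. All 10 were exaggerated rises. In siSCR 11 rose and in siPRMT1 15, against 16.0% and 24.4%. At day 4 11 were higher in siPRMT1 and 1 lower, against 13.0% and 8.54%, and in ES cells 2 were higher and 5 lower, against 9.27% and 13.1%. Lef1, a nuclear effector of Wnt signalling, read 8.21, 8.15 and 8.15 in siSCR bodies and 9.85, 9.91 and 9.88 in siPRMT1 bodies, from ES means of 6.87 and 7.01 (interaction 1.57 ± 0.0661, adjusted p = 7.74e-08). Fgf5, the classical epiblast marker, rose 2.44-fold in siSCR and 6.06-fold in siPRMT1, with means of 7.37, 8.66, 7.44 and 10.04.

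The de novo DNA methyltransferases rose little in control bodies. Dnmt3a read 9.57, 9.43 and 9.52 in siSCR bodies and 10.66, 10.68 and 10.52 in siPRMT1 bodies, from ES means of 9.23 and 9.07 (interaction 1.28 ± 0.0926). Dnmt3b rose 1.16-fold in siSCR and 2.6-fold in siPRMT1, with means of 10.25, 10.46, 9.98 and 11.36 (1.17 ± 0.0832). Their cofactor Dnmt3l had means of 10.66, 11.26, 11.01 and 11.97 (0.36 ± 0.0811). Otx2, the forebrain and epiblast homeobox gene, rose in both lines, 7.62-fold and 10.8-fold, and its interaction was smaller (0.51 ± 0.113). Tet1, a demethylation enzyme, was reversed by a small amount, with means of 12.89, 13.06, 13.01 and 12.85.

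Endoderm genes rose in both lines and farther in the knockdown. Of 29 measured genes 24 rose in siSCR and 27 in siPRMT1, against 16.0% and 24.4% of all genes. The interaction was higher in 19 and lower in 0 (median 0.50), against 17.0% and 10.8%, with 18 exaggerated and 1 reversed. At day 4 25 were higher in siPRMT1, against 13.0% of all genes. Ttr, the thyroid hormone carrier of visceral endoderm, read 9.7, 10.18 and 9.97 in siSCR bodies and 11.32, 11.3 and 11.22 in siPRMT1 bodies, rises of 9.13-fold and 19.8-fold (interaction 1.12 ± 0.161, adjusted p = 0.000328). Apoa1, an apolipoprotein, rose 2.78-fold and 8.34-fold, with means of 7.69, 9.16, 7.8 and 10.86 (1.58 ± 0.104). The factor Gata6 had means of 10.89, 11.13, 11.18 and 11.88 (0.46 ± 0.0736) and Gata4 of 9.8, 10.68, 10.26 and 11.44 (0.30 ± 0.0965, adjusted p = 0.0383). Sox17 rose 1.53-fold and 1.8-fold with an interaction of 0.24 ± 0.185 that was not called (adjusted p = 0.376). Pdgfra, a receptor of primitive endoderm also listed with mesoderm, was reversed, with means of 10.67, 10.11, 10.4 and 10.96 (1.12 ± 0.0783).

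**Figure D4:**
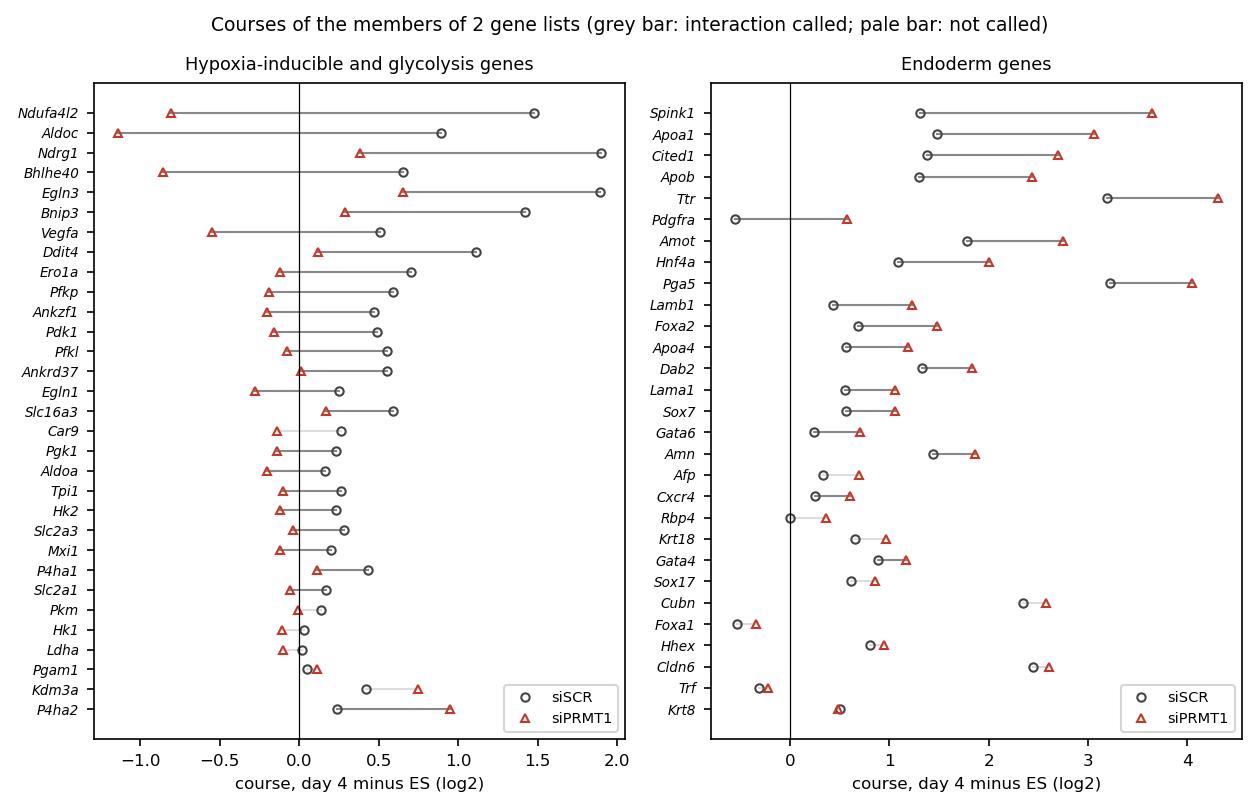
Day 4 minus ES difference in log2 units of each measured member of the hypoxia and glycolysis list (left) and the endoderm list (right), with circles for siSCR, triangles for siPRMT1 and a darker bar between them where the interaction was called. On the left 24 called members have the triangle left of the circle and 1, P4ha2, right of it, and on the right all 19 called members have it to the right.

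Of 19 primitive streak and mesoderm genes 5 had a higher and 2 a lower interaction (median 0.04), and of 19 neural genes 4 and 2 (median -0.04). Their called shares, 36.8% and 31.6%, compare with 27.8% of all genes. The mesoderm median was -0.01 after quantile normalization and -0.02 after median centring, so its sign depends on scaling. Neural genes called lower were 4 after quantile normalization or without siSCR ES replicate 2. Eomes rose 1.91-fold in siSCR and 2.01-fold in siPRMT1, an interaction of 0.08 ± 0.112. Msi1, an RNA-binding protein of neural progenitors, was reversed, with means of 9.98, 10.15, 10.57 and 9.51 (-1.23 ± 0.0779). Cdh2, or N-cadherin, fell in siSCR from 9.79, 9.64 and 9.64 to 8.35, 8.09 and 8.21 and in siPRMT1 rose from 8.59, 8.66 and 8.56 to 8.89, 8.95 and 8.78 (1.74 ± 0.105, adjusted p = 8.53e-07). The tight junction gene Cldn4 was reversed the other way, with means of 9.74, 10.68, 10.24 and 10.04.

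Signalling antagonists that pattern the epiblast and endoderm were among the exaggerated genes. Of 28 Nodal, BMP, Wnt and FGF feedback genes 10 had a higher and 9 a lower interaction (median -0.06), against 17.0% and 10.8% of all genes. Of the 28, 15 were exaggerated, against 15.7% of all genes. Fst, which binds activin, had means of 9.22, 10.03, 8.91 and 11.07 (1.36 ± 0.0756), and the Wnt antagonist Sfrp5 7.92, 7.75, 7.57 and 8.71 (1.30 ± 0.14). Bmp7 fell more in the knockdown, with means of 8.31, 7.71, 8.57 and 7.21 (-0.77 ± 0.112). Of 23 retinoic acid target genes 10 had a higher and 1 a lower interaction (median 0.33), against the same 17.0% and 10.8%. Cyp26a1, which degrades retinoic acid, rose 2.33-fold in siSCR and 8.21-fold in siPRMT1, with means of 7.56, 8.78, 7.35 and 10.39 (1.82 ± 0.121). Rarb fell in siSCR from 7.81 to 6.73 and had siPRMT1 means of 7.41 and 7.26.

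The 2-cell-like genes had the largest list median. They mark the rare ES cells that resemble the 2-cell embryo and reactivate its transcripts. Of 14 measured genes 13 fell in siSCR and 12 in siPRMT1, with medians of -2.84 and -1.16, against 15.3% and 21.4% of all genes that fell. A higher interaction was called in 13 (median 1.55), against 17.0% of all genes. All 13 were blunted falls, and all 13 were lower in knockdown ES cells, against 13.1% of all genes. At day 4 1 was higher and 0 lower, against 13.0% and 8.54%. Zfp352 read 10.21, 10.16 and 10.01 in siSCR ES cells and 8.34, 8.5 and 8.47 in siPRMT1 ES cells, and its day 4 means were 7.15 and 7.18 (interaction 1.72 ± 0.131, adjusted p = 3.61e-06). Several members, such as the Usp17l, Pramel and Tdpoz genes, are close copies that may share probes, so their values are not independent.

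Interferon-stimulated genes also fell from a lower level in knockdown ES cells, where 15 of 29 were lower, against 13.1% of all genes. Of the 29, 21 fell in siSCR and 19 in siPRMT1, with 11 higher and 5 lower in the interaction (median 0.18) and 11 blunted. Among all genes 15.3% fell in siSCR and 21.4% in siPRMT1, with 17.0% higher and 10.8% lower in the interaction. Usp18, which dampens the interferon receptor, read 10.19, 10.04 and 10.19 in siSCR ES cells and 9.42, 9.1 and 9.01 in siPRMT1 ES cells, with day 4 means of 6.88 and 6.78 (0.86 ± 0.162). Ifitm1 ran the other way, with a blunted rise and means of 11.34, 12.2, 11.34 and 11.45. The interferon-stimulated response element, searched on both strands in the same window, was in 11 of 23 promoters of the list (47.8%) and in 3.89% of all.

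Fibroblast and feeder markers fell as well. Of 27 measured genes 22 fell in siSCR and 23 in siPRMT1, against 15.3% and 21.4% of all genes. At each stage 15 were lower in siPRMT1, against 13.1% of all genes in ES cells and 8.54% at day 4. The list mean per array was 9.59 to 9.64 in siSCR ES cells, 8.59 to 8.69 in siSCR bodies, 9.3 to 9.35 in siPRMT1 ES cells and 8.43 to 8.47 in siPRMT1 bodies, above the array medians in every group. In the interaction 7 were higher and 3 lower, with a median of -0.00. The called share was 37.0% against 27.8% of all genes, a share that is higher among brighter genes. Acta2, smooth muscle actin, had means of 9.4, 7.68, 8.44 and 7.57 and S100a4 of 10.35, 8.07, 9.34 and 7.73. With the feeder list's mean per array as a covariate 4 interferon genes had a higher interaction in place of 11, but that covariate follows the 4 groups, so the part of these cells in the blunted falls cannot be told apart from them.

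Ribosome biogenesis genes, which build the ribosome's subunits in the nucleolus, rose in the knockdown course. Of 26 measured 17 rose in siPRMT1 and 1 in siSCR, against 24.4% and 16.0% of all genes. The interaction was higher in 15 and lower in 0 (median 0.32), against 17.0% and 10.8%. Of the 15, 12 were exaggerated and 3 reversed. With arrays scaled to one SD the median was 0.2. The lines differed at both stages, with 8 lower and 1 higher in knockdown ES cells and 11 higher and 0 lower at day 4. Those shares of all genes were 13.1% and 9.27%, and 13.0% and 8.54%. Polr1b, a subunit of RNA polymerase I, read 11.73, 11.74 and 11.75 and then 11.76, 11.68 and 11.72 in siSCR, and 11.3, 11.31 and 11.34 and then 11.95, 11.97 and 11.96 in siPRMT1 (0.66 ± 0.0616, adjusted p = 1.57e-05). DNA replication genes had 9 of 24 higher and 0 lower (median 0.16), a called share of 37.5% against 27.8% of all genes. Group means of this list were 11.29 to 11.4, above the array medians, and brighter genes were called more often. The higher count was 5 after median centring. Among the 9 was Tyms, thymidylate synthase, with means of 11.52, 11.5, 11.09 and 11.55. Mitotic genes had 6 of 23 lower and 1 higher (median -0.12), a lower count that was 11 after quantile normalization, and their called share of 30.4% lay near the 27.8% of all genes.

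**Figure D5:**
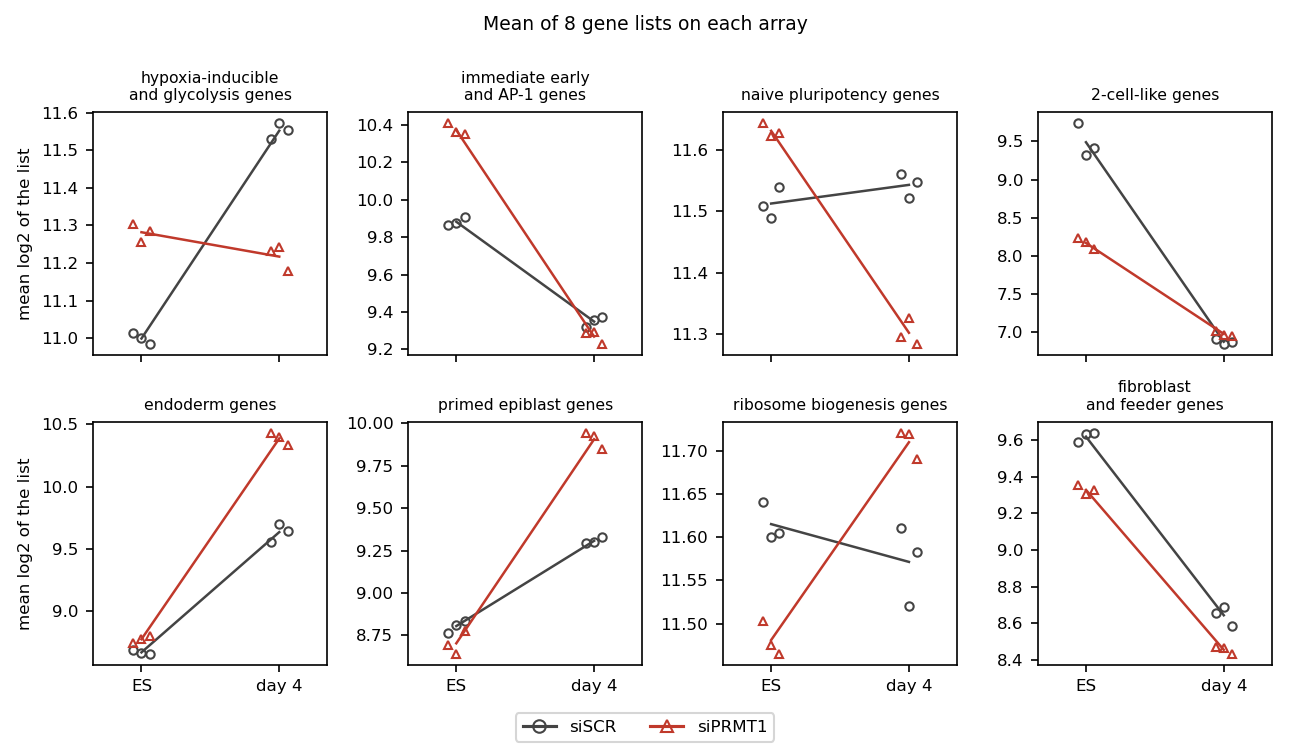
Mean log2 value of 8 gene lists on each of the 12 arrays, with 3 points per group (circles siSCR, triangles siPRMT1) and a line joining the group means of ES cells and day 4 bodies. The hypoxia list crosses between the lines. The endoderm list is farther apart at day 4 (9.56 to 9.7 in siSCR, 10.33 to 10.43 in siPRMT1) than in ES cells (8.66 to 8.69 against 8.75 to 8.8). The 2-cell-like list is farther apart in ES cells (9.33 to 9.74 against 8.09 to 8.23) than at day 4 (6.84 to 6.9 against 6.95 to 7.01).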

How the data were processed

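Total RNA of D3 cells was labelled from 300 ng per sample and hybridised to Affymetrix whole-transcript arrays, per the labels' protocols. The table deposited by the authors holds log2 expression values per probe set, a scale read from their range (2.14 to 14.5). The authors' normalization is not given in the sources used. Of 35556 probe sets, 21789 had 1 gene symbol, 1621 several and 12146 none. Only the 1-symbol sets entered, giving 19938 genes, and where a gene had several (999 genes) its brightest set over the 12 arrays stood for it. No detection calls were used, so low values may be background.

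Means of the 4 groups were fitted to the 12 arrays with limma 3.58.1 in R 4.3.3, without a block, with 8 residual degrees of freedom and Benjamini-Hochberg adjustment over all genes. The fit was tested on simulated data with known changes in 200 of 19938 genes, over 10 draws. It recovered 62.6% of 1.5-fold and 90.2% of 2-fold changes, and 5.03% of its calls were false. The simulated noise was independent between arrays and far fewer genes changed than were called here, so these shares may not hold for the data. The text names Prmt1, then in each of 6 kinds of course the 5 genes with the largest interaction whose lines were apart in ES cells or at day 4, passing over predicted, histone and small RNA genes and receptor and immunoglobulin families. The comparison, the classes and the gene lists were chosen with earlier results of these data known, and members of lists were picked for the text with their values in view. Alternatives were a replicate block, other scalings, filters and variance settings, 24 arrays, a 2-fold threshold and leaving out each array. A fit of 18 arrays and a feeder covariate were chosen after the data were seen. Sequences are from RefSeq.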

Additional observations from a re-analysis of the deposited data

Results flagged for a closer look

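The interaction is itself a difference between the lines in the same contrast, so each gene named by the rule is listed here with the interaction that marked it, siPRMT1 course minus siSCR course in log2 units. The target Prmt1 stood at 0.74. Among reversed genes that rose in siSCR, Ndufa4l2 stood at -2.29, Aldoc at -2.03, A2m at -1.99, Cntd1 at -1.95 and Crtac1 at -1.86. Among those that fell in siSCR, Rxrg stood at 2.12, Irgm1 at 2.07, Il33 at 2.00, Ly96 at 1.92 and Plat at 1.85.

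Among exaggerated rises, Spink1 stood at 2.35, Lpar4 at 2.14, Sema6a at 1.97, Cer1 at 1.89 and Cdh9 at 1.87. Exaggerated falls were Fosb at -2.60, Fos at -2.44, Tgm2 at -2.13, Got1l1 at -1.83 and Dhrs7 at -1.70. Among blunted rises, Prdm1 stood at -1.65, Ndrg1 at -1.52, Gdpd3 at -1.32, Gna14 at -1.25 and Ephx2 at -1.24. Blunted falls were Arhgef26 at 2.32, Eif4a3l1 at 2.29, Uprt at 1.79, Ppbp at 1.77 and Arg2 at 1.76. All but Prmt1 were picked from genes that passed the limma test of the interaction, so their passing it adds no support. No group was large enough for a test of outlying arrays.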

How the results depend on the processing

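Prmt1 and the other 30 genes named by rule kept their sign under each alternative in which they were followed. They also kept their call there under all but the 2-fold threshold, which Prmt1 missed, at 0.74. They were not followed in the run on single probe sets. Many list members have interactions under 2-fold and miss that threshold too. With a replicate block the interaction had 5553 calls, 3365 higher and 2188 lower, the courses 6180 in siSCR and 9354 in siPRMT1, and the classes 684 reversed, 3167 exaggerated and 1518 blunted. Deviations of equal replicate numbers correlated at -0.365 to 0.508 between groups. For siSCR ES with siSCR day 4, siSCR ES with siPRMT1 ES, and siSCR day 4 with siPRMT1 ES, replicate 1 gave 0.308, 0.446 and 0.293. Replicate 2 gave 0.508, -0.108 and -0.116 there, and replicate 3 gave -0.076, 0.089 and -0.365. Unequal numbers were not compared, so pairing of some groups was not settled. The 24-array fit gave 4750 interaction calls and the 18-array fit, added after the data were seen, 6183. At 2-fold or more the interaction had 343 calls (236 higher, 107 lower), the siSCR course 550 (197, 353), the siPRMT1 course 652 (401, 251), the knockdown in ES cells 77 (12, 65) and at day 4 91 (72, 19). Classes then held 114 reversed, 134 exaggerated and 95 blunted genes, and stages 58 in ES cells alone, 56 at day 4 alone and 224 at both, opposite. Array weights gave 6927 knockdown calls in ES cells (2994 higher, 3933 lower), 1112 reversed genes and 1914 opposite at both stages. By sign and size alone, with no call on a course, 2984 genes were reversed, 1669 exaggerated and 891 blunted. A covariate of the feeder list, added after the data were seen, left 3602 interaction calls, 2076 of them higher, but 99.7% of its variance lay between the 4 groups, so it cannot be told apart from them. Leaving out 1 array gave 4593 to 5576 interaction calls, with 0 changes of sign among the 5544 genes called with all 12. Higher calls at day 4 ran from 1652, without siPRMT1 day 4 replicate 1, to 2731. Why these counts moved, beyond stricter thresholds and fewer arrays, was not tested.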

Other observations

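Imprinted genes, expressed from 1 parental copy, split by gene. Of 18 measured 7 had a higher and 4 a lower interaction (median 0.13), a called share of 61.1% against 27.8% of all genes. The maternally expressed RNA Meg3 read 9.2, 9.72 and 9.63 in siSCR ES cells, 10.04, 10.48 and 10.55 in siSCR bodies, 9.73, 10.02 and 9.83 in siPRMT1 ES cells, and 9.58, 9.52 and 9.45 in siPRMT1 bodies, a blunted rise with an interaction of -1.19 ± 0.208 in limma (adjusted p = 0.00123). Igf2, Cdkn1c and Peg3 rose more in the knockdown, with interactions of 0.88 ± 0.122, 0.84 ± 0.115 and 0.74 ± 0.092, and Dlk1 fell more (-0.84 ± 0.0962).

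Among the 13 measured genes of the arginine methyltransferase list, 4 had a higher and 4 a lower interaction, a called share of 61.5%. Prmt8, a close relative of Prmt1, had means of 7.01 and 7.59 in siSCR ES cells and bodies and 7.64 and 7.19 in siPRMT1 (-1.03 ± 0.0873, adjusted p = 8.07e-06). Prmt2 had means of 8.55, 7.9, 8.18 and 8.35 (0.82 ± 0.104), and Carm1 12.14, 12.08, 12.08 and 12.13, an interaction of 0.10 that was not called (adjusted p = 0.306). Of 20 p53 target genes 7 were higher and 3 lower (median 0.11), of 18 epithelial and mesenchymal genes 8 and 3 (0.07), of 12 DNA methylation genes 5 and 2 (0.20), of 14 trophoblast genes 1 and 2 (0.00), and of 23 germ cell genes 0 and 5 (-0.13), the last 8 without siSCR ES replicate 1. The trophoblast and germ cell lists were called at 21.4% and 21.7%, under the 27.8% of all genes. The p53, epithelial and mesenchymal, and DNA methylation lists were called at 50.0%, 61.1% and 58.3%.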
